A study of Mus musculus with 6 samples.

Results

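Transcripts of 8 genes known from brown adipose tissue and from mitochondrial uncoupling were examined in whole skin of JunB dep mice and control mice. The genes are Ucp1, Ucp2, Ucp3, Cidea, Dio2, Prdm16, Ppargc1a and Zic1. They were picked by symbol from a table of 23951 genes. All 8 are in the table, and all 8 passed the filter on low values, which asked for 0.1 FPKM or more on average across 6 mice. FPKM, the unit of every level given here, counts fragments per kilobase of transcript at a common library total, so that levels of different genes can be compared per length.

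The data are RNA sequencing of poly(A) RNA from skin of 3 controls with the genotype JunB +/+ and 3 mutants with the genotype JunB dep. All mice were C57Bl/6 littermates of 6 to 7 months. In JunB dep mice, a floxed Junb gene is crossed to K5-Cre, a recombinase driven by the keratin 5 promoter, which is active in basal keratinocytes and other epithelial cells, so the remaining cells of the skin keep the gene. The study took lesional skin of the mutants. The sources used here do not give the body site, or whether the controls carried the floxed allele or Cre.

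Brown adipocytes burn fatty acids to make heat. Cold acts through noradrenaline, beta-adrenergic receptors and cyclic AMP, and UCP1 in the inner mitochondrial membrane lets protons return without ATP being made. Beige adipocytes are cells inside white depots that can take on this program, and white adipocytes, the main fat cells of the dermis, store lipid and hold little UCP1. Several of the 8 genes are also known from other tissue: Ucp3 and Ppargc1a from skeletal muscle, Ucp2 from immune cells and Cidea from sebaceous glands, so in whole skin a level is a sum over tissues. In such bulk samples, fewer cells of a type and less RNA per cell cannot be told apart.

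In the mouse (mm9 build, GENCODE annotation), Ucp3 and Ucp2 are neighbours on chromosome 7, at chr7:107621499-107634941 and chr7:107641846-107650529, both on the plus strand with 6904 bases between them. Ucp1 is at chr8:85814247-85822355 (+), Dio2 at chr12:91962994-91976878 (-), Prdm16 at chr4:153690234-154010982 (-), Ppargc1a at chr5:51845488-51958964 (-) and Zic1 at chr9:91252896-91260648 (-). Zic1 and Zic4 overlap by 3398 bases on opposite strands, and the sources used here do not say whether fragments were counted by strand.

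The 250 bases before the transcript start are shown for 4 genes, Ppargc1a because its levels separated the groups, and Ucp1, Ucp3 and Dio2 because single mice stood far from the others. The window of Zic1, whose levels also separated the groups, is not shown. Neither it nor the window of Prdm16 held a match to the motifs searched. The sequences come from the RefSeq promoter table of the GRCm38.p6 build, each was found once on its chromosome in mm9, and coordinates are mm9. They read 5′ to 3′ on the gene's strand, at chr5:51958965-51959214 (-) for Ppargc1a, chr8:85813997-85814246 (+) for Ucp1, chr7:107621250-107621499 (+) for Ucp3 and chr12:91977479-91977728 (-) for Dio2, where the RefSeq start lies upstream of the GENCODE gene. Capitals mark matches to the 5 motifs searched on both strands.
Ppargc1a: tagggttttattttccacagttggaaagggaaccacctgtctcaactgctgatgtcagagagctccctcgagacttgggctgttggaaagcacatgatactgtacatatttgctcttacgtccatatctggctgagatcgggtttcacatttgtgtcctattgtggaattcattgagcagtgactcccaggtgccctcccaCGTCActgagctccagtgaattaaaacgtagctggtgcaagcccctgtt
Ucp1: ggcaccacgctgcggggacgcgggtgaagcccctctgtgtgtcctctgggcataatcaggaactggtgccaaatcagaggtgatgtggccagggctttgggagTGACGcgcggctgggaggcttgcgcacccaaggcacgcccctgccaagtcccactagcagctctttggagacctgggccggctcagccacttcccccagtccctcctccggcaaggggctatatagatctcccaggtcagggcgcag
Ucp3: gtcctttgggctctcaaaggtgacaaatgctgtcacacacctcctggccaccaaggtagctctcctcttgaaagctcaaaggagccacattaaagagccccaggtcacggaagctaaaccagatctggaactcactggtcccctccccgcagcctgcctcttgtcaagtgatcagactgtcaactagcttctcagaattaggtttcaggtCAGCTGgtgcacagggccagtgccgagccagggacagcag
Dio2: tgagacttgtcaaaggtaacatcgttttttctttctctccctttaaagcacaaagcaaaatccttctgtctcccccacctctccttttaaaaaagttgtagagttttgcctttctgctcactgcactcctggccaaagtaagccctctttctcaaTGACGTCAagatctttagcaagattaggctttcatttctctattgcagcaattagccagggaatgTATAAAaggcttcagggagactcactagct

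The motifs were the AP-1 site TGACTCA, to which JunB-containing dimers can bind, the cyclic AMP response element TGACGTCA, its shorter form TGACG, the E-box CAGCTG known from muscle promoters, and the TATA box TATAAA. Promoters of 7 of the 8 genes were matched in the table, all but that of Cidea. The AP-1 site was in 0 of the 7 windows and in 4.46% of all 32851 promoters of the same length. The full cyclic AMP element was in 1 of 7, at bases -95 to -88 of Dio2, and in 1.55% of all promoters. Its shorter form, which lies within the full element, was in 4 of 7 (Ucp1 at -147 to -143, Ucp2 at -62 to -58, Ppargc1a at -49 to -45 and Dio2) and in 17.8% of all promoters. The E-box was in 2 of 7 (Ucp3 at -40 to -35 and Ucp2 at -225 to -220, 13.0% of all) and the TATA box in 1 of 7 (Dio2 at -30 to -25, 12.4% of all). A match is a run of letters and not a shown binding site, and a missing match says only that these letters are not in the window.

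Some facts on the libraries touch the results. The low FPKM values come in steps, as whole fragments give, and 5 of the 6 genes whose fragment numbers could be recovered (all but Zic1) gave the same total of 43500000 fragments for control replicate 0, with totals of 41500000 to 49600000 in the other 5 libraries. Junb levels were 59.3, 72.4 and 56.9 FPKM in the 3 controls and 42.8 and 28.0 FPKM in JunB dep replicates 1 and 2. The library labelled JunB dep replicate 0 had 129.6 FPKM, above every control. This level does not bear out the label, but in whole skin it cannot decide the genotype, since cells without K5-Cre keep the gene. Its cause was not tested. As labelled skin should, all libraries held keratinocyte transcripts, with 7 markers summing to 6168 to 13577 FPKM. The library labelled JunB dep replicate 0 had 14 of 15 white adipocyte markers at their lowest of the 6 mice, with a summed level of 318 FPKM against 2316 to 16617 FPKM elsewhere. The 20 skeletal muscle markers summed to 26204 to 35608 FPKM in controls and to 2453 to 5876 FPKM in JunB dep mice. Control replicate 0 held liver transcripts, whose 10 markers summed to 2125 FPKM against 2.47 to 29.8 FPKM in the other mice. The part of these differences in the results was not tested, and the main results are given with and without the library labelled JunB dep replicate 0.

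None of the 8 genes differed between the groups past the threshold, an adjusted p below 0.05 from limma over all 17021 genes tested on the log2(FPKM + 0.5) scale. The same test called 235 genes lower in JunB dep mice (1.38% of those tested) and 0 higher (0.0%). At an unadjusted p below 0.05, 2 of the 8 were lower, Ppargc1a and Zic1, against a background of 6.13%, and 0 were higher, against 1.43%. The groups did not overlap for 3 genes, with Ppargc1a and Zic1 lower (background 9.16%) and Ucp1 higher (background 5.62%). Ucp1 passed the filter only through the JunB dep mice, since its control mean of 0.0881 FPKM is below 0.1 FPKM, so its place in this count is a description and supports nothing. The median log2 difference of the 8 genes was -0.19, beside 0.03 over all tested genes. Without the library labelled JunB dep replicate 0, 0 of the 8 passed, where 0.739% of genes were called lower and 0.0591% higher.

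**Figure D1:**
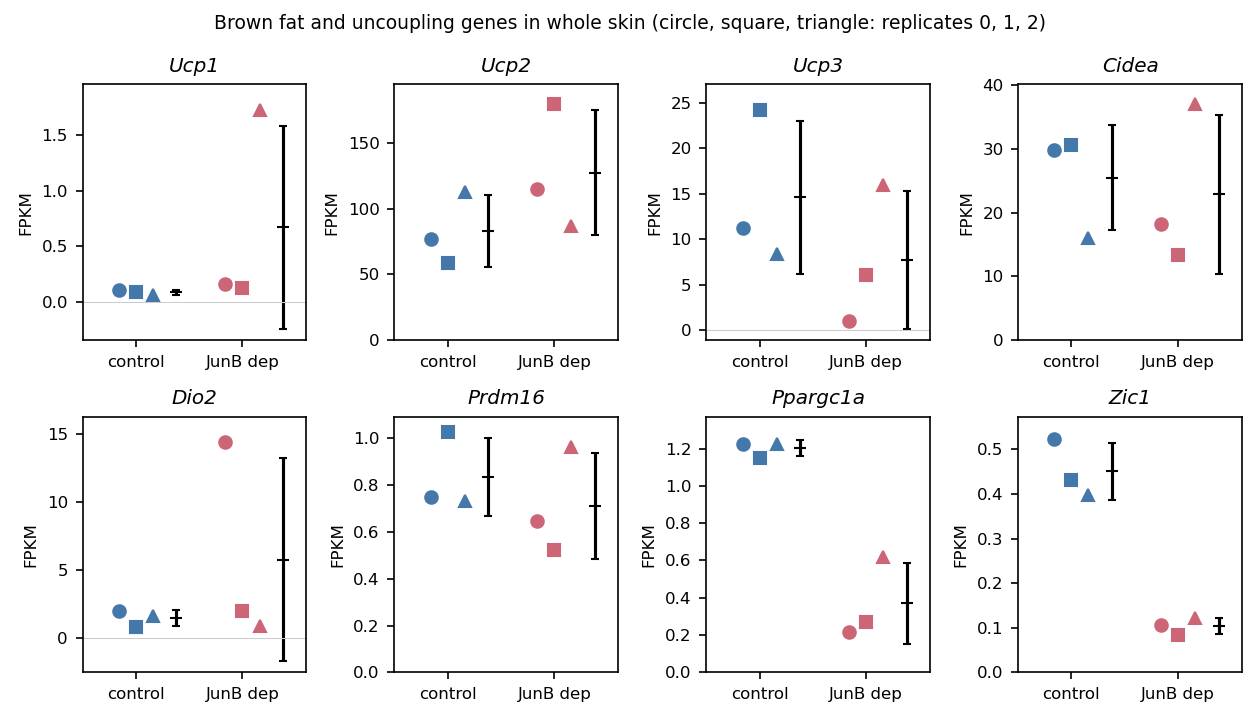
Levels of the 8 genes in FPKM (vertical axis, linear, one scale per gene) in each of 3 control and 3 JunB dep mice. Points are single mice, and the bars beside them are the mean with 1 SD (n = 3). Ppargc1a and Zic1 lie lower in every JunB dep mouse, while Ucp1 (1.73 FPKM in JunB dep replicate 2) and Dio2 (14.4 FPKM in the library labelled JunB dep replicate 0) each have one mouse far above the rest.

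Among the uncoupling proteins, Ucp1, the heat-producing one and the defining gene of brown and beige fat, was near the lower limit of the data in 5 of 6 mice. Its level was 0.112, 0.0879 and 0.0643 FPKM in control replicates 0, 1 and 2, and JunB dep replicates 0, 1 and 2 had 0.163, 0.123 and 1.73 FPKM. These values stand for 8, 6 and 5 fragments in the controls and 12, 10 and 119 fragments in the JunB dep mice. Every JunB dep value was above every control value, but those of replicates 0 and 1 lay within counting error of the controls: the exact Poisson 95% intervals were 6.2 to 21.0 and 4.8 to 18.4 fragments, beside 3.45 to 15.8, 2.2 to 13.1 and 1.62 to 11.7 fragments in controls. Only JunB dep replicate 2, with an interval of 98.6 to 142 fragments, stood apart, 10.6 times above the next mouse. Such intervals cover counting error only.

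The mean Ucp1 level was 0.0881 ± 0.0238 FPKM in controls and 0.671 ± 0.916 FPKM in JunB dep mice (SD, n = 3 each). The log2 difference was 0.73 (SE 0.51, 95% interval -0.50 to 1.96, limma adjusted p = 0.722). It was 0.13 without JunB dep replicate 2 and 1.003 without the library labelled JunB dep replicate 0. The log2(FPKM + 0.5) scale understates differences of low genes, here Ucp1, Zic1, Ppargc1a and Prdm16. JunB dep replicate 2 also had 14 of 15 white adipocyte markers at their highest of the 6 mice. In the other 5 mice, between 28.9% and 34.8% of all genes in the table were below Ucp1, and in JunB dep replicate 2 49.2% were.

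Ucp2, a mitochondrial carrier found in many tissues and well known from immune cells, was the most abundant of the 8 genes in every mouse. Its level was 76.8, 58.8 and 112.7 FPKM in controls, beside 115.1, 180.0 and 87.1 FPKM in JunB dep mice. Both of the higher JunB dep values, in the library labelled replicate 0 and in replicate 1, were above all controls, while replicate 2 lay inside the control range. Ucp2 had a log2 difference of 0.61 (SE 0.35, 95% interval -0.26 to 1.47, limma adjusted p = 0.722), which was 0.65 without the library labelled JunB dep replicate 0. It was 0.32 without JunB dep replicate 1 and 0.39 without control replicate 1. The immune marker list did not follow Ucp2: 11 of its 14 genes were highest in the library labelled JunB dep replicate 0, and 12 of 14 were lowest in JunB dep replicate 1, the mouse with the highest Ucp2. The part of immune cells in the Ucp2 level was not tested.

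Ucp3, the uncoupling protein of skeletal muscle and brown fat, was at 11.3, 24.2 and 8.43 FPKM in controls and at 1.05, 6.12 and 15.96 FPKM in JunB dep mice. The library labelled JunB dep replicate 0 and JunB dep replicate 1 were below all controls, while replicate 2 lay inside the control range. The fragments behind these values were 1197, 2462 and 976 in controls and 115, 743 and 1636 in JunB dep mice, so the spread between mice was far above counting error. The log2 difference was -1.31 (SE 0.89, 95% interval -3.49 to 0.86, limma adjusted p = 0.722). It moved to -0.40 without the library labelled JunB dep replicate 0 and to -2.10 without JunB dep replicate 2. The sample names fall in 2 number series, one with control replicates 0 and 1 and the library labelled JunB dep replicate 0, the other with control replicate 2 and JunB dep replicates 1 and 2. The log2 difference of Ucp3 was -3.46 within the first series and 0.22 within the other, so its direction was not shared.

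Set against skeletal muscle markers, Ucp3 lay within the control range in one JunB dep mouse and above it in the others. Its log2 level minus the mean log2 level of the 20 muscle markers was -4.53, -3.99 and -4.91 in controls and -4.62, -2.46 and -1.97 in JunB dep mice. The difference between the groups was 1.46 (exact permutation p = 0.3, two-sided), higher in 2 of 3 JunB dep mice. It was 2.26 without the library labelled JunB dep replicate 0 and 0.94 without JunB dep replicate 2. With 3 mice against 3, this test cannot go below 0.1, and after adjustment over the 10 such comparisons made here every value was 1.0.

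Cidea encodes a lipid droplet protein of brown adipocytes that is also made in sebaceous glands. It was at 29.8, 30.5 and 15.9 FPKM in controls and at 18.2, 13.4 and 37.0 FPKM in JunB dep mice. The groups overlapped, with the lowest value in JunB dep replicate 1 and the highest in JunB dep replicate 2. Cidea had a log2 difference of -0.22 (SE 0.44, 95% interval -1.29 to 0.85, limma adjusted p = 0.867), which turned to 0.09 without JunB dep replicate 1. Without the library labelled JunB dep replicate 0 it was -0.13. It lay near 0 without control replicate 0 (-0.08) or control replicate 1 (-0.06), at -0.52 without control replicate 2 and at -0.63 without JunB dep replicate 2.

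Cidea was compared with the markers of white adipocytes and of sebaceous glands. In the library labelled JunB dep replicate 0, Cidea was at 18.2 FPKM, while Adipoq and Plin1, which define fat cells, were at 1.61 and 0.228 FPKM. Other markers of the list were well above 0 there, with Cebpa at 99.3 FPKM and Dgat2 at 113 FPKM. Its log2 level minus the white adipocyte mean was -1.62, -2.07 and -1.84 in controls and 1.98, -2.36 and -2.86 in JunB dep mice, a range of 4.84. The same level minus the mean of 8 sebaceous gland markers was 2.21, 2.98 and 1.67 in controls and 1.52, 1.87 and 3.06 in JunB dep mice, a range of 1.53. Without the library labelled JunB dep replicate 0 the ranges were 1.24 and 1.39, so the wider spread against white adipocyte markers rests on that library. The differences between the groups, 0.76 and -0.14, did not pass (exact permutation p = 1.0 and p = 0.8, two-sided). Of the other genes of this family, Cidec, which builds the large lipid droplets of white adipocytes, was at 165, 283 and 107 FPKM in controls and at 1.17, 115 and 484 FPKM in JunB dep mice. Cideb, known from liver, was at 5.67 FPKM in control replicate 0, the mouse with liver transcripts, and at 0.144 to 0.619 FPKM in the other 5.

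Dio2, the deiodinase that makes active thyroid hormone inside the cell and is induced in brown fat by cold, had one very high value. It was at 1.94, 0.779 and 1.62 FPKM in controls and at 14.4, 1.99 and 0.875 FPKM in JunB dep mice. The library labelled JunB dep replicate 0 was 7.25 times above the next mouse, JunB dep replicate 1 was just above the top control, and replicate 2 lay inside the control range. The fragments were 490, 188 and 445 in controls and 3748, 573 and 213 in JunB dep mice. The log2 difference was 0.98 (SE 0.89, 95% interval -1.18 to 3.14, limma adjusted p = 0.726). Without the library labelled JunB dep replicate 0 it was -0.02, so the difference rests on that library. It was 1.70 without JunB dep replicate 2. Within the 2 number series it was 3.08 and -0.20. In this library S100a8, an alarmin of neutrophils that keratinocytes also make, was at 24456 FPKM against 8.15 to 744 FPKM in the other mice. The other 13 immune markers summed to 1201 FPKM there against 164 to 735 FPKM. Their part in the Dio2 level was not tested.

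Ppargc1a, the coactivator that switches on mitochondrial and heat-producing genes, was lower in every JunB dep mouse. Its level was 1.22, 1.15 and 1.23 FPKM in controls, beside 0.218, 0.271 and 0.621 FPKM in JunB dep mice. The 3 controls lay within a narrow band, and the highest JunB dep mouse was well below them. The fragments were 344, 309 and 375 in controls and 63, 87 and 168 in JunB dep mice. No exact Poisson 95% interval of a JunB dep mouse, the highest of which ended at 195 fragments, reached one of a control. The means were 1.20 ± 0.0428 and 0.370 ± 0.219 FPKM (SD, n = 3 each), 3.25 times higher in controls. On the log2 scale the difference was -0.996 (SE 0.23, 95% interval -1.55 to -0.44), which did not pass after adjustment over all genes (limma adjusted p = 0.175, lower in 3 of 3 mice). It was -0.87 without the library labelled JunB dep replicate 0 (adjusted p = 0.311), and -1.23 and -0.89 within the 2 number series. Leaving out each mouse in turn gave adjusted p-values of 0.0686 to 0.602.

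The summed markers of skeletal muscle, a tissue known for Ppargc1a, were also lower in every JunB dep mouse. Minus the muscle marker mean, the log2 level of Ppargc1a was -7.30, -7.89 and -7.28 in controls and -5.73, -5.56 and -5.85 in JunB dep mice. On that footing it was higher in 3 of 3 JunB dep mice, by 1.78 (also without the library labelled JunB dep replicate 0). This was at the smallest p the design allows (exact permutation p = 0.1, two-sided). However, the pseudocount, the constant added to each FPKM, sets a floor under low genes. The muscle marker mean was 8.1, 8.6 and 8.1 in controls and 5.2, 5.2 and 6.0 in JunB dep mice. JunB dep mice without any Ppargc1a would therefore also have come out higher, so this test cannot decide the direction. With a pseudocount of 0.1 the difference was 1.31. The part of muscle in the lower Ppargc1a was not tested.

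**Figure D2:**
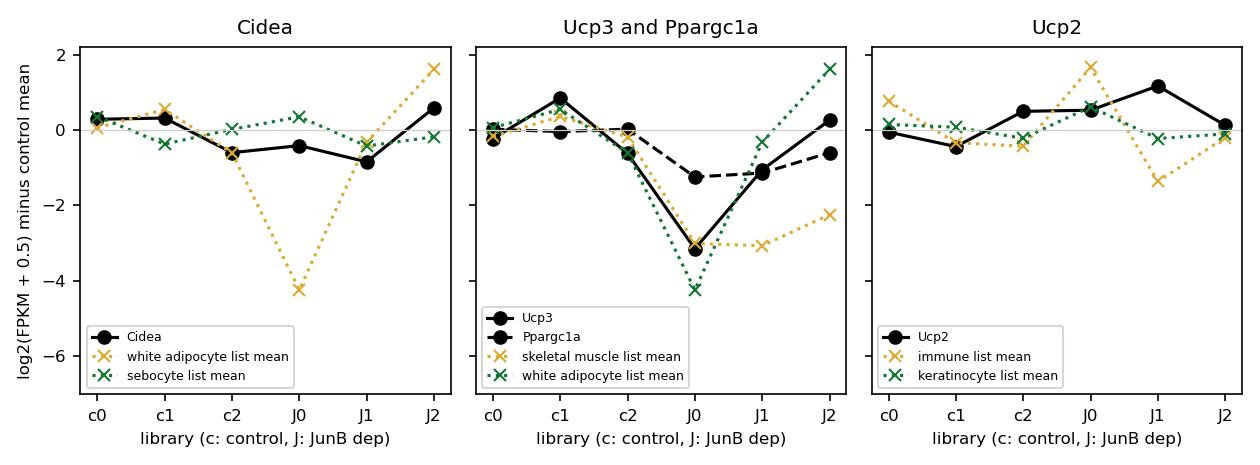
Levels of 4 genes beside the mean of tissue marker lists, as log2(FPKM + 0.5) minus the control mean (vertical axis) in the 6 libraries (horizontal axis; c0 to c2 controls, J0 to J2 JunB dep). Cidea stays near 0 where white adipocyte markers drop in J0, Ppargc1a and the muscle markers are both low in J0 to J2, and Ucp2 does not follow the immune markers.

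Prdm16, the zinc-finger regulator that steers precursors towards brown rather than muscle or white fate, was low in every mouse. It was at 0.749, 1.03 and 0.733 FPKM in controls and at 0.647, 0.521 and 0.961 FPKM in JunB dep mice. The groups overlapped, although the library labelled JunB dep replicate 0 and JunB dep replicate 1 were below all controls. Prdm16 had a log2 difference of -0.15 (SE 0.22, 95% interval -0.69 to 0.38, limma adjusted p = 0.814), and -0.12 without the library labelled JunB dep replicate 0. It was -0.04 without JunB dep replicate 1, -0.05 without control replicate 1 and -0.30 without JunB dep replicate 2.

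Zic1, a developmental transcription factor used as a marker of classical brown fat against beige fat, was low in all mice and lower in every JunB dep mouse. Its level was 0.522, 0.431 and 0.398 FPKM in controls, beside 0.107, 0.0842 and 0.121 FPKM in JunB dep mice. The smallest whole numbers of fragments with the ratios of these values were 76, 60 and 63 in controls and 16, 14 and 17 in JunB dep mice. With its longest annotated transcript of 5606 bases, these numbers gave a total of 26000000 fragments for control replicate 0 in place of 43500000, so the length behind the Zic1 values is unknown and its fragment numbers are less certain than those of the other genes. If they hold, the exact Poisson 95% intervals began at 45.8 fragments in the lowest control and ended at 27.2 fragments in the highest JunB dep mouse. The means were 0.450 ± 0.0644 and 0.104 ± 0.0186 FPKM (SD, n = 3 each), 4.33 times higher in controls.

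On the log2(FPKM + 0.5) scale the Zic1 difference was -0.65 (SE 0.15, 95% interval -1.01 to -0.29, limma adjusted p = 0.17, lower in 3 of 3 mice). It was -0.66 without the library labelled JunB dep replicate 0 (adjusted p = 0.255), and -0.69 and -0.58 within the 2 number series. With no filter on low values, the adjusted p was 0.0343, the one setting among those tried in which any of the 8 genes passed. Zic4, which overlaps Zic1 on the other strand, had 3, 12 and 4 fragments in controls and 1, 0 and 3 in JunB dep mice. Zic4 was below the filter on low values.

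**Figure D3:**
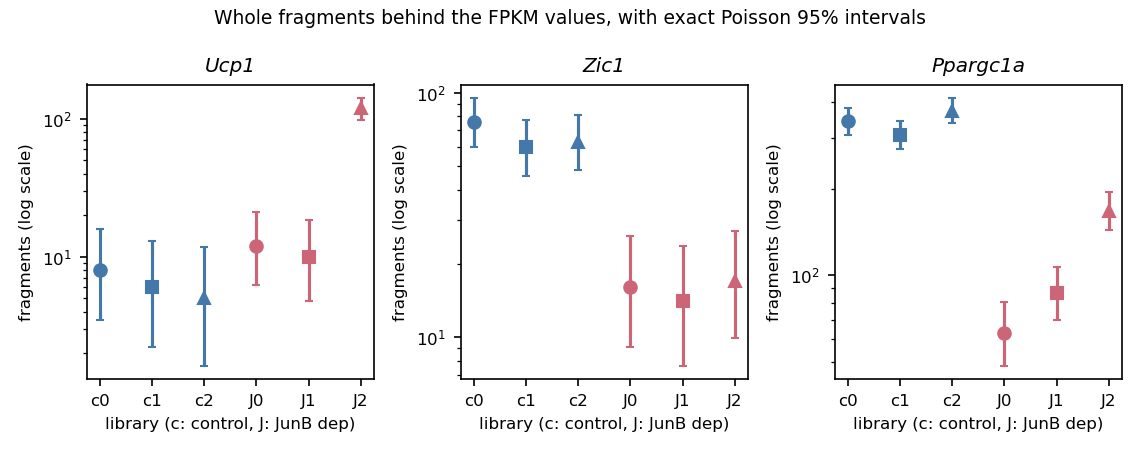
Whole fragments recovered from the FPKM values of Ucp1, Zic1 and Ppargc1a (vertical axis, log scale) in the 6 libraries (c0 to c2 controls, J0 to J2 JunB dep), with exact Poisson 95% intervals as bars. Intervals of the groups are apart for Ppargc1a and for Zic1, whose fragment numbers are less certain, while for Ucp1 J2 alone, with 119 fragments, is apart from the controls at 5 to 8.

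**Figure D4:**
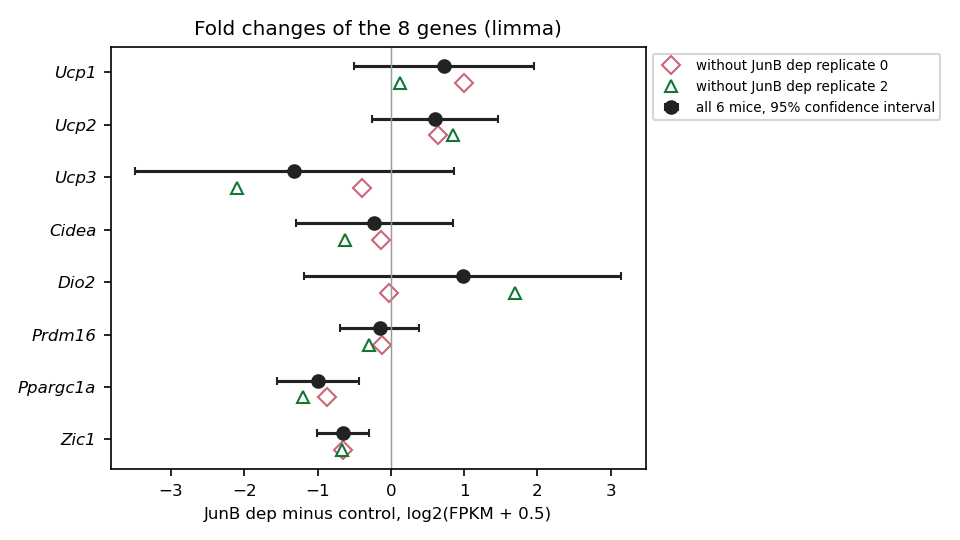
Difference between JunB dep and control mice on the log2(FPKM + 0.5) scale (horizontal axis) for each of the 8 genes, with the 95% confidence interval of limma as bars. Open symbols leave out 1 JunB dep mouse. The interval excludes 0 for Ppargc1a and Zic1 alone, and Dio2 and Ucp1 move to -0.02 and 0.13 when their highest mouse is left out.

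By level per length, the order in controls was Ucp2, Cidea, Ucp3, Dio2, Ppargc1a, Prdm16, Zic1 and Ucp1. Mean levels in controls ran from 82.8 FPKM for Ucp2 to 0.0881 FPKM for Ucp1, and the only neighbours whose ranges overlapped were Cidea with Ucp3 and Dio2 with Ppargc1a. In JunB dep mice the order was Ucp2, Cidea, Ucp3, Dio2, Prdm16, Ucp1, Ppargc1a and Zic1, and each pair of neighbours from Cidea down to Ppargc1a overlapped. Ucp2 stayed above Cidea in every mouse of either group. Ppargc1a was above Prdm16 in 3 of 3 controls and below it in 3 of 3 JunB dep mice.

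A further 21 genes known from brown adipocytes, all tested, held 3 that passed in the direction of lower expression and 0 that passed as higher. Cox7a1, a subunit of cytochrome c oxidase, was at 194, 311 and 196 FPKM in controls and at 24.8, 22.1 and 34.1 FPKM in JunB dep mice, a log2 difference of -3.08 (limma adjusted p = 0.0179). Cpt1b, which brings fatty acids into mitochondria, was at 46.0, 51.8 and 49.2 FPKM in controls and at 4.91, 5.07 and 9.55 FPKM in JunB dep mice, a log2 difference of -2.88 (adjusted p = 0.0179). Fabp3, a fatty acid carrier, was at 159.5, 441 and 164 FPKM in controls and at 12.01, 13.9 and 35.8 FPKM in JunB dep mice, a log2 difference of -3.60 (adjusted p = 0.0492). All of them are also genes of skeletal muscle, of whose 20 markers 13 passed as lower, with a median log2 difference of -3.01. Without the library labelled JunB dep replicate 0, 3 of the 20 passed, with a median of -2.82. None passed without JunB dep replicate 1 or without any one of the controls, and 5 passed with no filter on low values. Cox8b, of the same kind, had a log2 difference of -2.77 that did not pass (adjusted p = 0.0835).

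The other brown adipocyte genes did not move as a block. The median log2 difference of the 21 was -0.43, and -0.21 without the library labelled JunB dep replicate 0, in which 13 of the 21 were at their lowest. No overlap between the groups was seen for 8 of the 21 with JunB dep lower (background 9.16%) and 1 with JunB dep higher (background 5.62%). Elovl3, an elongase of brown fat and sebaceous glands, had a log2 difference of 0.69 with overlapping groups (adjusted p = 0.722). Adrb3, the beta-adrenergic receptor of fat cells, was at 15.5, 29.7 and 8.57 FPKM in controls and at 0.904, 29.8 and 123 FPKM in JunB dep mice (log2 difference 0.09, adjusted p = 0.986). The calls on this list depended on single mice: 0 were left without any one of the controls or without JunB dep replicate 1, 2 (Cox7a1 and Cpt1b) without the library labelled JunB dep replicate 0, and 4 without JunB dep replicate 2. Fabp3 was also not called with no filter, no intensity trend, a robust fit or values rescaled to a sum of 1000000.

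**Figure D5:**
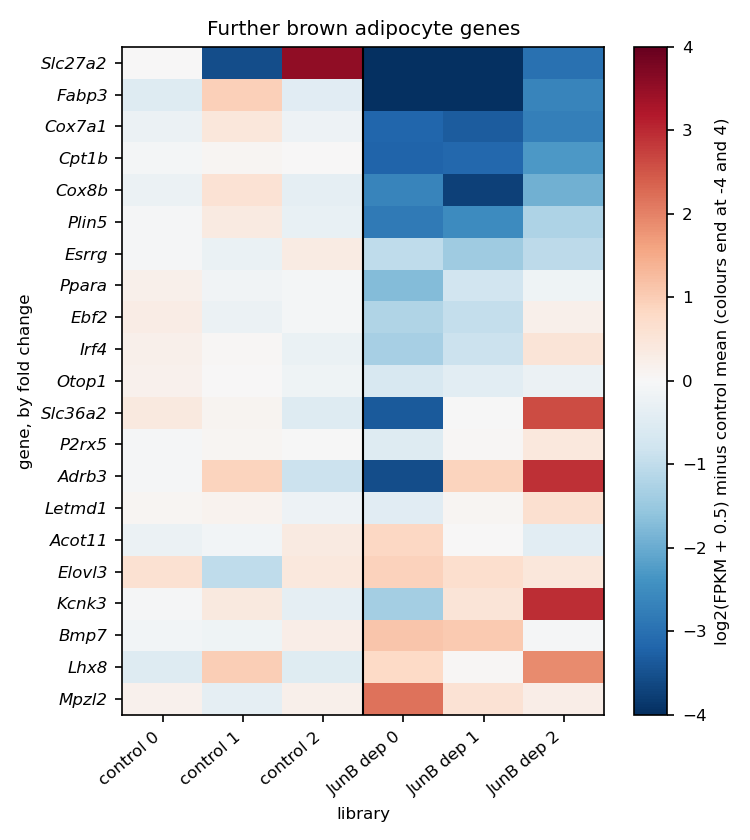
Levels of 21 further brown adipocyte genes (rows, ordered by fold change) in the 6 libraries (columns), as log2(FPKM + 0.5) minus the control mean, from blue (lower) to red (higher). Fabp3, Cox7a1, Cpt1b and Cox8b are blue in all JunB dep libraries, while Adrb3 is blue in replicate 0 and red in replicate 2.

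Beige adipocyte markers held no call among 5 tested, with a median log2 difference of 0.25, and of 0.42 without the library labelled JunB dep replicate 0. Tbx1, the most abundant, was at 18.6, 30.0 and 30.3 FPKM in controls and at 10.3, 64.9 and 18.3 FPKM in JunB dep mice. Cited1, a marker of induced beige cells, was at 0.127, 0.717 and 0.306 FPKM in controls and at 0.289, 1.94 and 26.5 FPKM in JunB dep mice, with its highest value in the mouse that also had the highest Ucp1. Its log2 difference was 2.13 and did not pass (adjusted p = 0.722).

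Calls among partners of these regulators were too few to compare with the background, 1.38% lower and 0.0% higher among all tested genes. Of 13 genes around Ppargc1a (related coactivators, nuclear respiratory factors and mitochondrial replication genes), 1 passed as lower and 0 as higher, with a median log2 difference of 0.11, and of 0.07 without the library labelled JunB dep replicate 0. The one call was Prkaa2, the AMP-activated kinase subunit of muscle, at 6.13, 5.21 and 6.09 FPKM in controls and at 1.24, 1.01 and 2.00 FPKM in JunB dep mice (log2 difference -1.75, adjusted p = 0.0425), and it was lost without any one mouse other than JunB dep replicate 2, with no filter and with values rescaled to a sum of 1000000. Ppargc1b, the closest relative of Ppargc1a, was at 0.755, 0.784 and 0.648 FPKM in controls and at 1.68, 0.689 and 0.856 FPKM in JunB dep mice, with overlapping groups. Esrra, the nuclear receptor through which the coactivator acts, had a log2 difference of -0.18 (adjusted p = 0.796).

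Around Dio2, 0 of 7 tested thyroid hormone genes passed in either direction, with a median log2 difference of -0.29, and of 0.01 without the library labelled JunB dep replicate 0. Thrsp, a thyroid-responsive lipogenic gene, was at 93.4, 68.5 and 42.2 FPKM in controls and at 0.689, 146 and 1013 FPKM in JunB dep mice, lowest and highest in the same libraries as most white adipocyte markers. Thra, a thyroid hormone receptor, was at 24.4 to 36.6 FPKM in controls and at 8.85, 30.3 and 33.0 FPKM in JunB dep mice. Of 10 adrenergic signalling genes, 0 passed and the median log2 difference was 0.00, and 0.29 without that library. Of 10 partners of Prdm16, 0 passed and the median was -0.22, and 0.05 without that library. Among them Pparg, the master regulator of fat cells, was at 18.5, 20.0 and 12.6 FPKM in controls and at 3.17, 13.1 and 56.3 FPKM in JunB dep mice.

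Ucp1, Ucp2 and Ucp3 belong to the mitochondrial carriers of the Slc25 family, of which 44 further genes named Slc25a were tested. Of these, 2 passed as lower and 0 as higher, beside 1.38% and 0.0% of all tested genes. The median log2 difference was -0.08, and -0.06 without the library labelled JunB dep replicate 0. Both calls rested on single mice: Slc25a12 alone passed without the library labelled JunB dep replicate 0, Slc25a4 alone without JunB dep replicate 2, and neither without JunB dep replicate 1 or without any one of the controls. Slc25a4, the ADP/ATP carrier of muscle, was at 1019, 1646 and 1018 FPKM in controls and at 201, 167 and 281 FPKM in JunB dep mice (log2 difference -2.50, adjusted p = 0.0263). Slc25a12, the aspartate/glutamate carrier of muscle and brain, had a log2 difference of -1.64 (adjusted p = 0.0499), which did not pass with median-ratio scaling, a pseudocount of 0.1, no filter, no intensity trend or a robust fit. Slc25a5, the ADP/ATP carrier of most other cells, was at 200, 184 and 256 FPKM in controls and at 571, 361 and 253 FPKM in JunB dep mice, a log2 difference of 0.82 that did not pass (adjusted p = 0.66). Slc25a3, the phosphate carrier, differed by -0.11.

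The genes most like each of the 8 across the 6 mice were named by the smallest root mean square difference of centred log2 levels, as a description over 6 libraries that share depth and tissue content. For Ppargc1a they were Zfp3 (0.0801), Mfn2 (0.0864) and Herc3 (0.0865), and for Zic1 Rarb (0.0641), Pdp1 (0.086) and Tacc2 (0.0889), all higher in controls. For Ucp1 they were 4732471J01Rik (0.178), Slc5a6 (0.184) and Adora2a (0.224), each highest in JunB dep replicate 2. For Dio2 they were Dsg1b (0.145), Bdkrb2 (0.185) and Egln3 (0.230), each highest in the library labelled JunB dep replicate 0. Ucp3 was followed most closely by Cd59a (0.103) and Cidea by Dll4 (0.117), an endothelial Notch ligand. Ucp2 was followed by Ddx11 (0.0831) and Prdm16 by Top1mt (0.0473).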

How the data were processed

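RNA sequencing of skin from 3 JunB +/+ and 3 JunB dep mice was used. Per the labels, poly(A) libraries were made with a stranded kit. The submitters' processing notes name FastQC, TopHat2 2.0.10, Bowtie 1.0.0, SAMtools 0.1.19, Cufflinks and the mm9 build. The values that the authors deposited are FPKM, 1 for each gene in each mouse. The sources used here do not say whether these were scaled further between libraries.

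On the log2(FPKM + 0.5) scale, the 17021 genes averaging 0.1 FPKM or more were compared with limma 3.58.1 in R 4.3.3 (intensity trend, no block, two-sided, Benjamini-Hochberg adjustment, threshold 0.05). A few values were compared by exact permutation tests in scipy 1.17.1, and figures were drawn with matplotlib 3.10.9. The replicates are separate mice. The 8 genes and all gene lists were chosen with earlier results of these data known. All 8 genes were named, as were up to 6 genes of each list (those called, then those of highest mean FPKM), up to 3 most alike genes of each (mean of at least 1 FPKM), Junb and the 3 Slc25a genes of highest mean. Other genes named (Slc25a12, Ppargc1b, Kcnk3, Slc36a2, Plin1, Cebpa) were chosen after their values were seen.

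Fragment numbers were recovered from steps of the FPKM values (genes below 0.15 FPKM gave the relative totals, with a tolerance of 0.03 fragments and up to 3000 fragments in control replicate 0), an approach chosen after seeing the data. They were found for 6 of the 8 genes, not for Ucp2 and Prdm16, and no count test was run on them. Alternatives were 2 other pseudocounts, other filters, 3 rescalings, no trend, a robust fit, 2 blocks and each mouse left out. The replicate numbers do not pair the mice (correlations of deviations 0.12, -0.228 and -0.426 for equal numbers).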

Additional observations from a re-analysis of the deposited data

How the results depend on the processing

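Of 132 log2 differences of the 8 genes recomputed under 17 alternatives, 130 kept their direction and 1 passed the threshold, Zic1 with no filter on low values (adjusted p = 0.0343), which gives 1 of the 8 called lower in place of 0. The 2 that reversed were Cidea, 0.087 without JunB dep replicate 1, and Dio2, -0.022 without the library labelled JunB dep replicate 0. Leaving out each mouse in turn gave -0.63 to 0.09 for Cidea and -0.02 to 1.70 for Dio2. Sizes moved by over 1.5 times with a pseudocount of 0.1 for Ucp1 (1.34), Ppargc1a (-1.56), Zic1 (-1.43) and Prdm16 (-0.23), with a pseudocount of 1 for Zic1 (-0.39), with quantile normalization for Prdm16 (-0.021) and with the block on the number series for Cidea (-0.12). With the replicate block, the 235 genes called lower became 0 and the 3 further brown adipocyte genes became 0. The block on the number series in the names also gave 0 and 0. Under either block, 0 of the skeletal muscle, Slc25a and Ppargc1a-related genes were called. Without one mouse, 0 to 254 genes were called lower, 0 to 10 higher, and 0 to 4 of the further brown adipocyte genes lower. The 235 became 0 without any one control or without JunB dep replicate 1, and 125 without the library labelled JunB dep replicate 0. The cause was not tested. The replicate block changed no call on the 8 genes, since none was called.

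Relative levels were added after seeing the data. Ppargc1a minus white adipocyte markers was -0.01, and 0.19 with a pseudocount of 1 (-1.51 to 1.09 without one mouse). Zic1 minus the same list was 0.33, and -0.26 with a pseudocount of 0.1 (-1.30 to 1.61). Without one mouse, the values crossed 0 for Cidea (-0.77 to 1.65), Dio2 (-0.66 to 3.98) and Prdm16 (-0.76 to 1.98) minus white adipocyte markers, for Ucp2 minus immune markers (-0.40 to 1.43) and for Cidea minus sebaceous gland markers (-0.59 to 0.21). Ucp1 and Zic1 rest on few fragments, which limits their precision.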

Other observations

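In JunB dep replicate 2, the mouse with the highest Ucp1, some genes of brown and beige fat cells were also at their highest, and the 2 named next were chosen after their values were seen. Kcnk3, a potassium channel of brown adipocytes, was at 1.12, 1.66 and 0.799 FPKM in controls and at 0.141, 1.85 and 12.3 FPKM in JunB dep mice. Slc36a2, an amino acid transporter on the surface of brown adipocytes, was at 12.9, 10.6 and 6.67 FPKM in controls and at 0.487, 9.59 and 62.3 FPKM in JunB dep mice. Of the 21 further brown adipocyte genes, 7 were highest in this mouse and 14 were not, among them Cox7a1, Cpt1b, Fabp3 and Cox8b, which were below every control there. Of 5 beige markers, 2 were highest there, Cited1 and Shox2. Of the white adipocyte markers, 14 of 15 were highest there, and the list summed to 16617 FPKM there.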
